A study of Homo sapiens with 14 samples.

Results

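Heat shock proteins and DNAJ proteins are molecular chaperones, the proteins that fold, refold and escort other proteins. Their genes were taken from the count table by symbol: HSPA, HSPB, HSPD, HSPE and HSPH genes, HSP90AA1, HSP90AB1, and the numbered DNAJA, DNAJB and DNAJC genes. The rule gave 69 of 24729 genes and left out HSPA5, DNAJB9 and the pseudogene HSP90AB4P. They comprise 15 HSP70 and HSP110 genes, 2 HSP90 genes, 8 small heat shock protein genes, 2 chaperonin genes, 4 DNAJA, 12 DNAJB and 26 DNAJC genes. Because the rule reads symbols only, the set also holds HSPA7 and DNAJB3, which RefSeq lists as transcribed pseudogenes, and HSPB11, whose product is known as an intraflagellar transport protein.

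HSP70 proteins bind unfolded stretches of a client protein and release them on a cycle of ATP hydrolysis and nucleotide exchange. DNAJ proteins bring clients to HSP70 and start the hydrolysis step, HSP110 proteins exchange the nucleotide, and HSP90 takes over clients such as kinases, among them the BCR-ABL fusion kinase of chronic myeloid leukemia. Some chaperone genes are expressed at all times, while others are switched on by heat or unfolded protein through the transcription factor HSF1, which binds inverted repeats of the bases GAA.

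RNA-seq was performed on K562, an established line of human chronic myeloid leukemia cells that express erythroid genes. Cells of 4 groups stably carried catalytically inactive Cas9 with a Flag and biotin-acceptor tag (FB-dCas9), BirA, a biotin ligase, and guide RNA. In the groups sgHS2, sgHBG and sgHS1-5 the guides target regulatory elements at the β-globin locus, and in sgGal4 the guide is non-targeting. Each of these groups had 3 libraries, and WT, K562 cells labelled with none of these agents, had 2. All 4 modified groups carry dCas9 and BirA, so a difference from WT that they share cannot be told apart from any other difference between the WT population and theirs. The labels name neither clones nor pools, and do not say if replicates came from different cultures. The spread behind each p-value is therefore that of these libraries and may be technical.

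The libraries held 5694448 to 11335831 counted reads, fewest in sgHS1-5, and a count of 0 allowed 0.265 to 0.527 CPM (counts relative to library size) by the 3-count limit, which covers counting error only. Erythroid markers were present in every group, with summed levels of 1120 to 2259 CPM. Library sgGal4 1 stood apart from the other sgGal4 libraries: relative to its group's mean, the genes with the shortest transcripts were high (median log2 deviation 0.41) and those with the longest were low (−0.35). Library sgHS2 2 differed from its group in the same direction with smaller values (0.16 and −0.15). The sgHS1-5 libraries held RNA of genes that K562 lacks or that mark other blood cells: the 3 deleted 9p21 genes summed to 1.23 to 29.7 CPM against at most 0.184 elsewhere, 4 of 4 myeloid markers to 111 to 2128 CPM (36.4 to 38.9 in WT, 61.5 to 196 in the other groups) and 4 of 4 lymphoid markers to 8.43 to 76.2 CPM (at most 5.03 elsewhere). Results are therefore also given without sgGal4 1, and without sgGal4 1, sgHS2 2, sgHS1-5 2 and sgHS1-5 3 together. In the latter fit the remaining library, sgHS1-5 1, is assumed to vary like the other groups. That library also holds 9p21 and lymphoid RNA above the levels of all other groups, so this fit does not remove it. By chi-square per degree of freedom, sgHS1-5 1 and 3 differed from each other by 3.11. Their values against sgHS1-5 2 were higher (18.4 and 11.95).

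Chaperone genes took a larger share of the reads in every modified library than in WT. They held 0.760% and 0.784% of the reads in the WT libraries and 1.17% to 1.32% in the other 12, and their summed level, in CPM scaled by TMM factors, was 7434 to 7678 in WT and 10942 to 17071 elsewhere. The highest sum was that of sgGal4 1. HSP90AB1, HSPA8 and HSP90AA1, the most abundant cytosolic HSP90 and HSP70 genes, together made up 33.7% to 33.9% of the chaperone reads in WT and 52.3% to 59.9% in the other libraries. In bulk RNA, a higher level in each cell and a larger number of cells at a high level cannot be told apart.

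Per length of transcript, in the deposited RPKM averaged over the 5 group means, HSP90AB1 was the most abundant chaperone gene (836), followed by HSPA8 (621), the small heat shock protein HSPB1 (465), HSP90AA1 (297) and the mitochondrial chaperonin HSPD1 (251). The order differed in WT, where HSP90AB1 (449 RPKM) was followed by the mitochondrial HSP70 HSPA9 (305 RPKM) and HSPD1 (274 RPKM), all above HSPA8 (167 RPKM). DNAJC8, a J protein linked to splicing, led the DNAJC genes with a mean of 118 RPKM, DNAJA1 the DNAJA genes with 110 RPKM and DNAJB6 the DNAJB genes with 89.7 RPKM.

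Of the 69 genes, 58 had enough reads to be tested, and the test was run on 14406 genes in all. The other 11 were DNAJA4, DNAJB3, DNAJB8, DNAJB13, HSPA2, HSPA12A, HSPA12B, HSPB2, HSPB6, HSPB7 and HSPB9. DNAJB8 had 0 reads in all 14 libraries, and DNAJA4 reached 16 reads in sgHS1-5 2 and at most 3 elsewhere. An edgeR quasi-likelihood test for any difference among the 5 groups, called at a Benjamini-Hochberg adjusted p under 0.05, called 38 of the 58 chaperone genes (65.5%), beside 67.1% of all genes tested. That share is near the background.

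More chaperone genes rose than fell in each modified group against WT. Of the 58, 23 rose and 7 fell in sgGal4, where 42.4% of all genes tested were called, 22.7% as higher and 19.6% as lower. In sgHS2 22 rose and 4 fell, beside 33.1% of all genes called (17.6% higher, 15.5% lower). In sgHBG 16 rose and 5 fell (all genes 33.6%, with 17.7% higher and 15.9% lower), and in sgHS1-5 19 rose and 11 fell (all genes 42.9%, with 23.4% higher and 19.5% lower). These comparisons share the 2 WT libraries. Without the 4 libraries named above the counts of these 58 were 28 and 22, 28 and 18, 27 and 21, and 26 and 14, in the same order, with 70.2%, 66.5%, 69.1% and 58.9% of all genes called. Without sgGal4 1 alone, 26 rose and 13 fell in sgHBG, where 49.1% of all genes were called. Without WT 1, which left 1 WT library, fewer chaperone genes and fewer of all genes were called in sgGal4.

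The libraries were also counted 1 by 1, without a test. For 18 of the 58 genes all 12 modified libraries lay above both WT libraries, as for 14.9% of all genes tested, and for 3 genes (DNAJB7, DNAJC9 and HSPA13) all 12 lay below, as for 14.3% of all genes. The 18 were HSPA1A, HSPA1B, HSPA1L, HSPA4, HSPA6, HSPA8 and HSPH1 of the HSP70 and HSP110 genes, HSP90AA1 and HSP90AB1, HSPB1, HSPE1, DNAJA1, DNAJA2, DNAJB1, DNAJB2, DNAJB4, DNAJC2 and DNAJC14. Most of these are cytosolic, and 12 of them stand in a list of 15 genes known to be induced by heat or unfolded protein. That list was chosen with earlier results of these data known, so the overlap is no separate support. With CPM not scaled by TMM, 18 genes lay above and 7 below, beside 12.6% and 16.05% of all genes. With RPKM, 19 lay above and 7 below, beside 15.96% and 16.5% of all genes. Without the 4 libraries named above, 21 lay above and 12 below (36.2% and 20.7% of the 58). The shares of all genes were then 22.3% above and 22.3% below, so the share below was near the background.

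**Figure D1:**
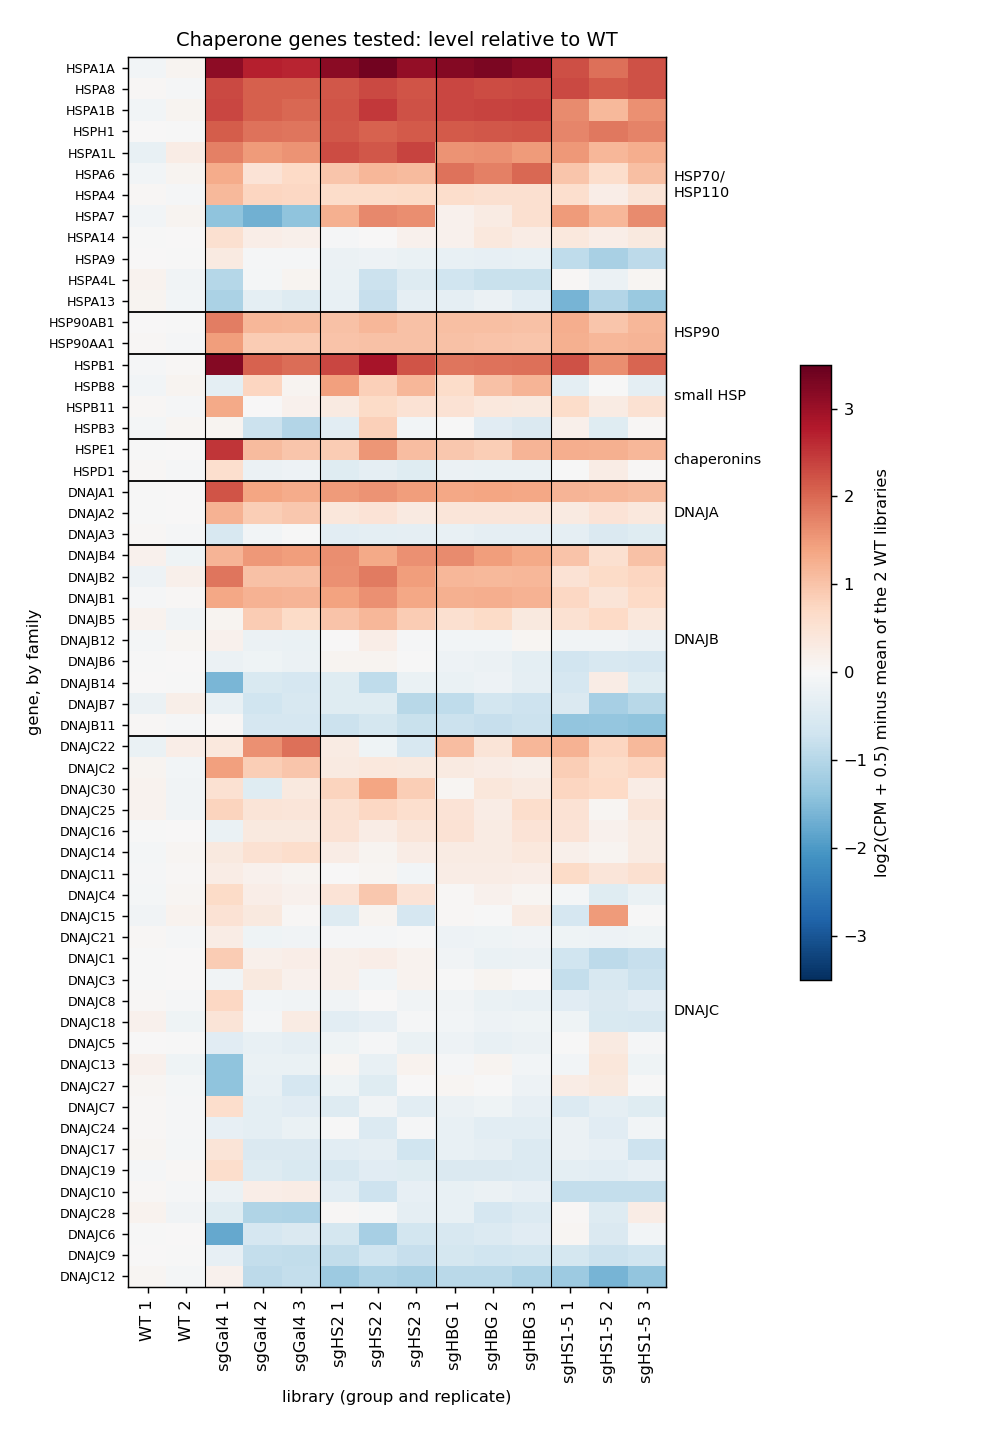
Level of each of the 58 tested chaperone genes (vertical axis, grouped by family) in each of the 14 libraries (horizontal axis), as log2(CPM + 0.5) minus the mean of the 2 WT libraries. Red cells lie above WT and blue cells below: HSPA1A, HSPA8, HSPA1B, HSPH1, HSPB1 and both HSP90 genes are red in all 12 modified libraries, HSPA7 is blue in sgGal4 and red in sgHS2 and sgHS1-5, and the DNAJC genes show both colours.

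The 15 heat-inducible genes were all tested. Against WT, 12 rose and 0 fell in sgGal4, 12 rose and 0 fell in sgHS2, 11 rose and 1 fell in sgHBG, and 12 rose and 1 fell in sgHS1-5. That is 80%, 80%, 80% and 86.7% called, beside 42.4%, 33.1%, 33.6% and 42.9% of all genes. The median log2 differences of the 15 were 1.43, 1.47, 1.37 and 1.16, beside medians over all genes tested of 0.03, 0.03, 0.02 and 0.05. At an unadjusted p under 0.05, 12, 12, 14 and 13 of the 15 differed. DESeq2 called 12 higher and 1 lower, 12 and 0, 12 and 2, and 12 and 1, and without the 4 libraries named above 12 were higher in each comparison and 2, 2, 3 and 1 lower. The 3 of the 15 without a rise in any of these comparisons were HSPD1, HSPA4L and DNAJB6, described below.

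HSPA1A and HSPA1B encode the same stress-inducible cytosolic HSP70 and share reads, so the split between them is uncertain. HSPA1A stood at 36.0 and 40.9 CPM in WT, 343, 253 and 244 CPM in sgGal4, 346, 402 and 330 CPM in sgHS2, 359, 378 and 349 CPM in sgHBG, and 186, 146 and 181 CPM in sgHS1-5. Every modified library was far above WT, and the sgHS1-5 libraries were the lowest of the 12 modified libraries. The log2 difference from WT was 2.86 ± 0.18 (SE) in sgGal4, 3.22 ± 0.18 in sgHS2, 3.23 ± 0.18 in sgHBG and 2.15 ± 0.17 in sgHS1-5 (edgeR adjusted p from 9.00e-08 to 1.30e-06). The sum of both genes was 75.3 ± 7.35 CPM in WT (SD, n = 2), 446 ± 74.3 in sgGal4, 543 ± 57.8 in sgHS2, 553 ± 13.9 in sgHBG and 275 ± 41.5 in sgHS1-5 (n = 3 each). The sum thus showed the same order of groups as HSPA1A alone.

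HSPA8, the constitutive cytosolic HSP70 also called HSC70, stood at 483 and 461 CPM in WT and at 2027 to 2409 CPM in the 12 modified libraries. The 4 modified groups overlapped one another and none reached down to WT. HSPA8 rose by 2.18 to 2.31 on the log2 scale in the 4 groups (SE 0.12 in each, largest adjusted p 5.75e-08), which is 4.52- to 4.98-fold. HSPH1, an HSP110 that exchanges nucleotide on HSP70, stood at 40.0 and 38.9 CPM in WT, 147 to 174 CPM in sgGal4, 166 to 178 CPM in sgHS2, 176 to 183 CPM in sgHBG and 131 to 144 CPM in sgHS1-5. It rose by 1.98, 2.14, 2.19 and 1.79 in the same order (SE 0.11, adjusted p at most 1.19e-07). HSPA4, another HSP110, rose less, by 0.89 ± 0.14, 0.65 ± 0.14, 0.58 ± 0.14 and 0.44 ± 0.14. Its call in sgHBG was lost without WT 2, and its call in sgHS1-5 was lost when WT 1, WT 2, sgHS1-5 1 or sgHS1-5 3 was left out (log2 0.35 to 0.53, adjusted p up to 0.154). HSPA4L, the third HSP110 gene, did not rise: it stood at 29.2 and 24.8 CPM in WT and 13.3 to 28.9 CPM elsewhere, and fell in sgHBG (log2 −0.77 ± 0.25, adjusted p 0.0295), a call lost when either WT library or any sgHBG library was left out (−0.89 to −0.65, adjusted p up to 0.192).

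The HSP90 genes encode the cytosolic HSP90 pair, the inducible HSP90AA1 and the more constitutive HSP90AB1. HSP90AB1 stood at 1458 and 1406 CPM in WT, 4958, 3209 and 3138 CPM in sgGal4, 2900 to 3199 CPM in sgHS2, 2918 to 2945 CPM in sgHBG and 2809 to 3430 CPM in sgHS1-5. Apart from sgGal4 1, the modified libraries lay within a narrow range about 2-fold above WT. It rose by 1.40 ± 0.18, 1.07 ± 0.18, 1.04 ± 0.18 and 1.13 ± 0.18 on the log2 scale in sgGal4, sgHS2, sgHBG and sgHS1-5 (largest adjusted p 0.000747). HSP90AA1 went from 637 to 665 CPM in WT to 1212 to 1779 CPM elsewhere, with log2 differences of 1.11 in sgGal4, 1.01 in sgHS2, 0.998 in sgHBG and 1.20 in sgHS1-5 (SE 0.15, largest adjusted p 0.000275).

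HSPB1, also called HSP27, is a small heat shock protein that holds unfolded clients without ATP. It stood at 71.3 and 75.2 CPM in WT, 683, 306 and 284 CPM in sgGal4, 369, 544 and 337 CPM in sgHS2, 269, 273 and 279 CPM in sgHBG, and 343, 227 and 301 CPM in sgHS1-5. All modified libraries lay above WT, and sgGal4 1 and sgHS2 2, the libraries with high short transcripts, were the highest. The log2 differences were 2.53 ± 0.36, 2.51 ± 0.36, 1.90 ± 0.35 and 1.99 ± 0.35 in sgGal4, sgHS2, sgHBG and sgHS1-5 (largest adjusted p 0.00116). HSPE1, the mitochondrial co-chaperonin, showed the same pattern of libraries at a lower level, with 11.4 and 11.5 CPM in WT, 67.1, 25.1 and 23.0 CPM in sgGal4 and 21.1 to 34.4 CPM elsewhere. It rose in sgGal4, sgHS2 and sgHS1-5 (1.73 ± 0.40, 1.23 ± 0.39 and 1.26 ± 0.40) and had 1.04 ± 0.39 in sgHBG (adjusted p 0.0576). The sgHS2 and sgHS1-5 calls were lost without either WT library, and that of sgHS2 also without sgHS2 2 (adjusted p up to 0.138 and 0.106). HSPE1 also overlaps the readthrough gene HSPE1-MOB4, so its reads are uncertain.

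Of the other small heat shock protein genes, HSPB11 stood at 28.6 and 30.6 CPM in WT and 29.7 to 74.5 CPM elsewhere with no call, and HSPB3 at 0.642 to 3.65 CPM over all libraries with no call. HSPB8, which works with BAG3 in the disposal of misfolded proteins, had 1 and 2 reads in WT, 0, 6 and 2 in sgGal4, 14, 6 and 10 in sgHS2, 5, 9 and 11 in sgHBG and at most 1 in each sgHS1-5 library. It was called in sgHS2 against WT (adjusted p 0.0298) and not in sgHBG (0.0535), and the sgHS2 call was lost without WT 1, WT 2 or sgHS2 3.

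Of the 9 tested DNAJB genes, 4, 4, 3 and 3 rose and 1, 1, 2 and 3 fell in sgGal4, sgHS2, sgHBG and sgHS1-5 against WT, with median log2 differences of −0.09, 0.07, −0.04 and −0.15. That is 55.6%, 55.6%, 55.6% and 66.7% called, beside 42.4%, 33.1%, 33.6% and 42.9% of all genes. Of the 3 tested DNAJA genes 2 rose in each comparison with WT, and the other, DNAJA3, fell in sgHS1-5. DNAJB1, the inducible J protein HSP40, stood at 63.0 and 66.0 CPM in WT, 147 to 166 CPM in sgGal4, 167 to 198 CPM in sgHS2, 152 to 157 CPM in sgHBG and 87.5 to 106 CPM in sgHS1-5, so that sgHS1-5 lay between WT and the other groups without overlap. Its log2 differences from WT were 1.26, 1.47, 1.25 and 0.63 (SE 0.12, largest adjusted p 0.00101). DNAJB4, a close relative, had 14.05 and 11.2 CPM in WT and 18.8 to 40.3 CPM elsewhere, with log2 differences of 1.43, 1.55, 1.51 and 0.90 (SE 0.19, largest adjusted p 0.00198). DNAJB2, which carries ubiquitin-binding motifs, rose by 1.37, 1.66, 1.16 and 0.65 (SE 0.24), and its call in sgHS1-5 was lost when any of 9 libraries was left out, WT 1, WT 2, sgHS1-5 2 and sgHS1-5 3 among them (0.48 to 0.84, adjusted p up to 0.265).

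DNAJA1, a farnesylated partner of HSP70, stood at 84.2 and 86.5 CPM in WT, 397, 221 and 210 CPM in sgGal4, 236 to 253 CPM in sgHS2, 218 to 225 CPM in sgHBG and 185 to 194 CPM in sgHS1-5. It rose by 1.69, 1.51, 1.37 and 1.16 on the log2 scale (SE 0.22, largest adjusted p 0.00100). DNAJA2 rose by 1.02 ± 0.12 in sgGal4 and by 0.40, 0.43 and 0.39 in sgHS2, sgHBG and sgHS1-5, where the calls were lost without either WT library (adjusted p up to 0.122). DNAJB6, a suppressor of protein aggregation that is also induced by heat, differed from this group: it stood at 185 and 186 CPM in WT and fell in sgHS1-5 (115 to 125 CPM, log2 −0.61 ± 0.09, adjusted p 0.000172), with −0.18, 0.06 and −0.24 in sgGal4, sgHS2 and sgHBG.

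**Figure D2:**
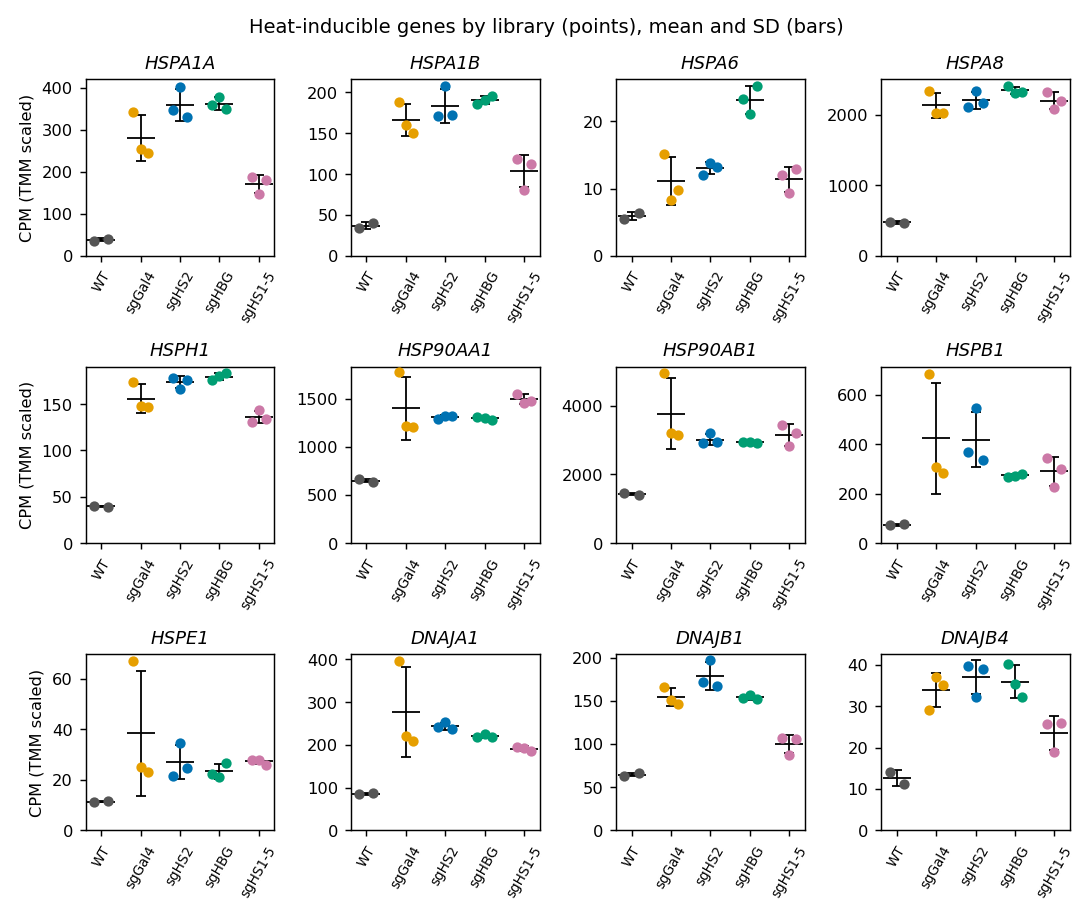
Levels of 12 heat-inducible chaperone genes in CPM scaled by TMM (vertical axes, starting at 0) by group (horizontal axes); points are libraries, and bars give the mean and SD (n = 2 for WT and 3 for the others). In each panel both WT libraries lie below all modified libraries, but only genes of the list with this order are shown. HSPD1, HSPA4L and DNAJB6, the others on the list, are left out. The sgHS1-5 libraries are the lowest modified group for HSPA1A, HSPA1B, DNAJB1 and DNAJB4. Library sgGal4 1 is the high point for HSP90AA1, HSP90AB1, HSPB1, HSPE1 and DNAJA1.

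HSPA6, the HSP70 that is nearly silent in unstressed cells, and the HSP70 genes HSPA1L and HSPA7 were read at low levels. HSPA1L stood at 1.73 and 2.64 CPM in WT (18 and 29 reads), 6.97 to 8.51 CPM in sgGal4, 11.4 to 13.2 CPM in sgHS2, 6.98 to 7.58 CPM in sgHBG and 5.46 to 7.13 CPM in sgHS1-5, and rose by 1.79, 2.48, 1.73 and 1.48 (SE 0.21 to 0.22, largest adjusted p 0.000154). HSPA6 stood at 5.48 and 6.29 CPM in WT, 15.2, 8.32 and 9.82 CPM in sgGal4, 12.1 to 13.8 CPM in sgHS2, 21.1 to 25.2 CPM in sgHBG and 9.29 to 12.8 CPM in sgHS1-5. It rose by 0.90 ± 0.24, 1.14 ± 0.23, 1.98 ± 0.24 and 0.95 ± 0.24, and its sgHBG libraries lay above all others. The calls in sgGal4 and sgHS1-5 were lost without WT 1 (adjusted p 0.0802 and 0.0660).

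The start regions of these genes were searched for the letters of heat shock elements, because the genes share their direction against WT. In RefSeq windows of build GRCh38.p14, from 250 bases before to 50 after a gene's start, 60 of the 69 genes had an entry; DNAJB3, DNAJC1, DNAJC22, DNAJC24, HSPA7, HSPA12B, HSPA14, HSPB2 and HSPB11 had none. The search was for GAANNTTC or TTCNNGAA, each of which reads the same on both strands, and for the longer GAANNTTCNNGAA or TTCNNGAANNTTC, which contain overlapping copies of the shorter ones. A short match was present in 14 of 60 windows (23.3%), in 7 of the 18 genes above WT in all modified libraries (38.9%) and in 7 of the other 42 (16.7%), beside 4737 of 35116 windows in the table (13.5%). A long match was present in 4 windows: HSPA8, HSPA6 and DNAJA1 of the 18 (16.7%) and DNAJB6 of the other 42 (2.38%), beside 172 of all windows (0.490%). The following stretches, 5′ to 3′ on the gene's strand, hold the long match before the start of HSPA8 (chr11:123062164-123062206, minus strand), HSPA6 (chr1:161524451-161524493, plus strand) and DNAJB6 (chr7:157336858-157336900, plus strand), and the short match of HSPA1A (chr6:31815422-31815459, plus strand), HSPA1B (chr6:31827618-31827655, plus strand) and HSPB1 (chr7:76302476-76302513, plus strand), with the matched letters in capitals.
HSPA8: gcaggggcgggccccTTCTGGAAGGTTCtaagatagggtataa
HSPA6: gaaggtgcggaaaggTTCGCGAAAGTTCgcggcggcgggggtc
DNAJB6: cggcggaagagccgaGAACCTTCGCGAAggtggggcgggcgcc
HSPA1A: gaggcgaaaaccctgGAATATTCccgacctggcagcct
HSPA1B: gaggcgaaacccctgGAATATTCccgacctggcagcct
HSPB1: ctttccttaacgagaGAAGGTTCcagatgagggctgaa
The matches end 42 bases before the start of HSPA8, 61 before HSPA6, 118 before DNAJB6, 98 before HSPA1A, 97 before HSPA1B and 174 before HSPB1. The match of HSPA1L, which is transcribed in the opposite direction, is the same stretch of chromosome 6 as that of HSPA1A. The stretch of HSPA1B has nearly the same letters, so the matches of these genes are not separate ones. The sets were split by the levels given above, and the difference between their shares was not tested. A match is a description of the letters and not of a bound site, DNAJB6 and HSPA9, with a long and a short match, were not called higher than WT in any group, and genes without a match in the window, such as HSPH1, HSP90AA1 and DNAJB1, may hold these letters elsewhere.

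Among the mitochondrial chaperones, HSPE1 lay above WT in all modified libraries, as given above, and HSPD1 and HSPA9 did not. HSPD1, the mitochondrial chaperonin, stood at 648 and 618 CPM in WT, 950, 546 and 561 CPM in sgGal4, 469 to 505 CPM in sgHS2, 536 to 550 CPM in sgHBG and 625 to 752 CPM in sgHS1-5, and passed no test against WT (log2 0.12, −0.39, −0.22 and 0.09). HSPA9, the mitochondrial HSP70 mortalin, stood at 1144 and 1108 CPM in WT, 1089 to 1408 CPM in sgGal4, 966 to 993 CPM in sgHS2, 930 to 949 CPM in sgHBG and 514 to 605 CPM in sgHS1-5. It fell in sgHS1-5 against WT by 0.98 on the log2 scale (SE 0.12, adjusted p 4.27e-05) and had 0.09, −0.20 and −0.26 in the other groups. DNAJA3, a mitochondrial J protein, fell in sgHS1-5 against WT (−0.41 ± 0.14, adjusted p 0.0299), a call lost when either WT library or sgHS1-5 2 or 3 was left out. In a list of 8 mitochondrial chaperone genes, 2, 1, 0 and 3 rose and 1, 1, 1 and 3 fell in sgGal4, sgHS2, sgHBG and sgHS1-5 against WT, which is 37.5%, 25.0%, 12.5% and 75% called beside 42.4%, 33.1%, 33.6% and 42.9% of all genes. In sgHBG 2 of the 8 passed an unadjusted p under 0.05, and DESeq2 called 1 higher there. In the fit without the 4 libraries named above, where 58.9% to 70.2% of all genes were called against WT, 2, 1, 1 and 3 rose and 3, 5, 5 and 4 fell.

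The DNAJC genes are a varied group whose members share only the J domain that contacts HSP70. Of 26, 5 rose and 4 fell in sgGal4 against WT, 3 and 3 in sgHS2, 1 and 2 in sgHBG and 2 and 5 in sgHS1-5, with medians of 0.12, −0.15, −0.16 and −0.16. That is 34.6%, 23.1%, 11.5% and 26.9% called, each below the share of all genes given above. DNAJC9, a histone chaperone, fell in each comparison: it stood at 206 and 199 CPM in WT and 110 to 165 CPM elsewhere, with log2 differences of −0.64, −0.79, −0.65 and −0.69 (SE 0.15, largest adjusted p 0.00414). DNAJC12, a partner of HSP70 for aromatic amino acid hydroxylases, stood at 76.2 and 70.1 CPM in WT, 80.6, 38.5 and 40.5 CPM in sgGal4, 30.2 to 34.1 CPM in sgHS2, 34.6 to 38.1 CPM in sgHBG and 23.5 to 30.0 CPM in sgHS1-5. It fell by 1.17, 0.99 and 1.44 on the log2 scale in the 3 targeting groups (SE 0.24 to 0.25, the sgHBG call lost without WT 1 at adjusted p 0.0577), while sgGal4, with 1 library above WT, had −0.47 ± 0.25 (adjusted p 0.144).

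DNAJC2, a ribosome-associated J protein, rose in sgGal4 (1.11 ± 0.15) and sgHS1-5 (0.76 ± 0.15) against WT, from 67.6 and 76.1 CPM to 132 to 193 CPM and 112 to 131 CPM. Genes that fell in sgGal4 included DNAJC6, the auxilin of clathrin uncoating (−0.86 ± 0.29, adjusted p 0.0318), DNAJB14 (−0.83 ± 0.30, adjusted p 0.0399) and HSPA13 (−0.60 ± 0.22, adjusted p 0.0462). In these 3 genes sgGal4 1 was the lowest library of the group (23.5, 9.50 and 48.1 CPM beside 54.6 to 58.1, 19.4 to 20.5 and 75.3 to 82.2 CPM in the others). Each of the 3 calls was lost without either WT library, and those of DNAJB14 and HSPA13 also without sgGal4 1 (adjusted p over all libraries left out in turn up to 0.118, 0.148 and 0.219). DNAJB7 was read at a low level, with 4.91 and 6.74 CPM in WT and 2.32 to 4.68 CPM elsewhere. It fell in sgHBG (−0.85 ± 0.27) and sgHS1-5 (−0.98 ± 0.28), both calls lost without WT 2 and that of sgHBG also without any sgHBG library (adjusted p up to 0.266 and 0.143).

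The targeting groups were also compared with sgGal4, which carries dCas9, BirA and a non-targeting sgRNA. In sgHS2 5 of 58 chaperone genes rose and 7 fell, where 30.1% of all genes tested were called (14.5% higher, 15.6% lower). In sgHBG 2 rose and 5 fell (all genes 24.7%, with 12.1% higher and 12.6% lower). In sgHS1-5 5 rose and 21 fell (all genes 40.4%, with 20.3% higher and 20.2% lower). The median log2 difference of the chaperone genes was −0.05, −0.11 and −0.28, beside −0.02, −0.00 and 0.02 over all genes. These comparisons share the sgGal4 libraries. Without sgGal4 1, 16 rose and 8 fell in sgHS2, 5 and 8 in sgHBG and 8 and 21 in sgHS1-5. The share of all genes called was then 38.0%, 28.2% and 46.0%. Without the 4 libraries named above the counts of the 58 were 22 and 16, 14 and 15, and 15 and 21, with 58.7%, 55.5% and 47.8% of all genes called. Leaving out sgHS2 1, 2 or 3 left 7, 6 and 7 calls in sgHS2, beside 21.2%, 27.5% and 21.1% of all genes. Leaving out sgGal4 2 or 3 gave 12 and 14 calls in sgHBG, beside 26.1% and 27.4% of all genes.

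In sgHS1-5, the heat-inducible genes that were lower than in sgGal4 were HSPA1A (log2 −0.71 ± 0.14, adjusted p 0.00208), HSPA1B (−0.68 ± 0.14, 0.00289), DNAJB1 (−0.63 ± 0.10, 0.000560), DNAJB4 (−0.53 ± 0.16, 0.0181), DNAJA1 (−0.53 ± 0.19, 0.0376) and DNAJB6 (−0.42 ± 0.08, 0.00157). They are 6 of 15 (40.0%), with 0 higher, beside 40.4% of all genes called and 20.2% called as lower. At an unadjusted p under 0.05, 7 differed, and DESeq2 called 6 lower and 0 higher. With only these groups in the fit 3 were lower, without sgGal4 1 6 were lower and 2 higher, without sgHS1-5 2 4 were lower, and without the 4 libraries named above 7 were lower and 5 higher. HSPA8 (0.05 ± 0.10), HSP90AA1 (0.09 ± 0.13), HSP90AB1 (−0.26 ± 0.16) and HSPH1 (−0.20 ± 0.09) passed no test in this comparison, while the HSPA1 pair and DNAJB1 did. Without sgGal4 1, HSP90AA1 was called as higher in sgHS1-5 (log2 0.30, adjusted p 0.000742). The DNAJB4 call was lost without sgGal4 2 or sgHS1-5 2 (adjusted p up to 0.0786). The DNAJA1 call was lost without any of 7 libraries, each sgHS1-5 library among them (−0.70 to −0.18, adjusted p up to 0.103).

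The mitochondrial HSP70 HSPA9 and further members were also lower in sgHS1-5 than in sgGal4, while of the 8 genes of the mitochondrial list 1 rose and 2 fell (37.5% called, beside 40.4% of all genes). HSPA9 fell by 1.07 on the log2 scale (SE 0.11, adjusted p 1.84e-05). The next genes were named after their values were seen, so their shared place, the endoplasmic reticulum, is no result. They were DNAJC1 (−1.29 ± 0.16, adjusted p 7.66e-05), DNAJB11 (−1.05 ± 0.15, 0.000183), the disulfide reductase DNAJC10 (−0.94 ± 0.13, 0.000194), DNAJC3, an inhibitor of the kinase PERK (−0.86 ± 0.13, 0.000268), and HSPA13 (−0.71 ± 0.21, 0.0169). Others that fell were DNAJB2 (−0.72 ± 0.21), DNAJC18 (−0.68 ± 0.19), DNAJC8 (−0.65 ± 0.18), DNAJC4 (−0.61 ± 0.16), HSPA4 (−0.45 ± 0.12) and DNAJC14 (−0.31 ± 0.10), where the DNAJC18 call was lost without sgHS1-5 3 and the DNAJC14 call without any of 4 libraries. DNAJB12 and DNAJB14, also of the endoplasmic reticulum, had −0.06 ± 0.12 and 0.63 ± 0.28 and passed no test. DNAJB11, a co-chaperone of the luminal HSP70, stood at 151, 97.7 and 98.1 CPM in sgGal4 and 55.5, 56.8 and 54.8 CPM in sgHS1-5, and DNAJC3 at 50.2, 69.4 and 61.1 CPM against 30.6, 36.7 and 32.2 CPM. For HSPA9, DNAJC1, DNAJB11, DNAJC10 and DNAJC3 the 3 sgHS1-5 libraries lay below every sgGal4 library, but not for HSPA13, where sgGal4 1 (48.1 CPM) lay within the sgHS1-5 range of 33.5 to 50.5 CPM. The HSPA13 call was lost without sgGal4 2 or sgHS1-5 1 (adjusted p up to 0.0637). The myeloid, lymphoid and 9p21 RNA of the sgHS1-5 libraries moves with this comparison, and its part was not tested. HSPA9 was 605, 514 and 592 CPM in sgHS1-5 1, 2 and 3.

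**Figure D3:**
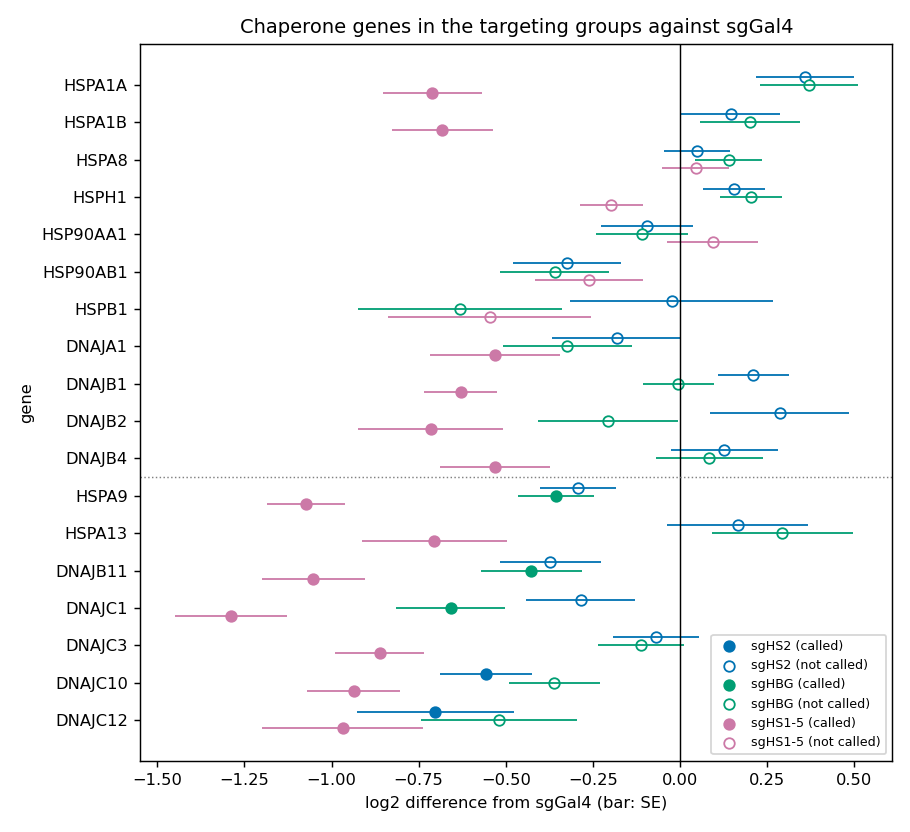
Log2 difference of 18 chaperone genes from sgGal4 (horizontal axis) in the 3 targeting groups, one row per gene; bars are SE, filled points passed the edgeR test and open points did not. Above the dotted line stand genes of the heat-inducible list and DNAJB2, which is not on that list. The 7 genes below it are mitochondrial, endoplasmic reticulum and other members. All 7 had been called lower in sgHS1-5, so their place left of 0 there is no separate result. Members of these places without such a call, such as HSPD1, DNAJB12 and DNAJB14, are not shown. HSPA8, HSPH1 and the HSP90 genes have no filled point.

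DNAJC12 fell in sgHS1-5 (−0.97 ± 0.23, adjusted p 0.00570) and in sgHS2 (−0.70 ± 0.23, 0.0325) against sgGal4, the latter lost when any sgHS2 library was left out. Genes that rose in sgHS1-5 were DNAJC27, with a GTPase domain (0.94 ± 0.27, adjusted p 0.0155), DNAJC5, the cysteine string protein of vesicles (0.42 ± 0.11, 0.00752), and DNAJC11, of the mitochondrial membrane (0.39 ± 0.09, 0.00565). DNAJC28 was called higher as well from few reads (4, 2 and 2 in sgGal4, 6, 4 and 9 in sgHS1-5), a call lost without sgGal4 2, sgGal4 3 or sgHS1-5 3. Against sgGal4, sgHS2 was higher for HSPA1L (0.69 ± 0.16, adjusted p 0.00665), DNAJC30 (0.89 ± 0.26, 0.0220) and DNAJB6 (0.24 ± 0.08, 0.0379) and lower for DNAJC22 (−2.10 ± 0.50, 0.00693), DNAJC2, DNAJA2 and DNAJC10. DNAJC22 rested on 4 to 12 reads per sgHS2 library beside 8, 35 and 47 in sgGal4. The DNAJB6 call was lost without any of 10 libraries and that of DNAJC30 without sgGal4 2 or sgHS2 2 (adjusted p up to 0.117 and 0.0876). HSPD1 was lower in sgHS2 (−0.51 ± 0.17, 0.0436), a call lost without any of 11 libraries, sgGal4 1 among them (−0.65 to −0.20). DNAJC14 (−0.29 ± 0.10, 0.0421) was lower and DNAJC28, again from few reads, higher in sgHS2, calls lost without any of 11 and 10 libraries.

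DNAJA2 and DNAJC2 were lower in each targeting group than in sgGal4. DNAJA2 stood at 136, 107 and 113 CPM in sgGal4 and at 72.5 to 81.5 CPM in the 9 targeting libraries, with log2 differences of −0.62, −0.58 and −0.63 in sgHS2, sgHBG and sgHS1-5 (SE 0.10, largest adjusted p 0.00149). The groups did not overlap, and the level in the targeting groups lay between WT and sgGal4. DNAJC2 had −0.77 ± 0.13, −0.85 ± 0.13 and −0.35 ± 0.13, the last of which was lost when any of 12 libraries was left out (−0.46 to −0.17, adjusted p up to 0.146). In sgHBG, DNAJC1 (−0.66 ± 0.16, adjusted p 0.00951), DNAJB11 (−0.43 ± 0.14, 0.0480) and HSPA9 (−0.36 ± 0.11, 0.0330) were also lower than in sgGal4. The DNAJB11 call was lost without any of 11 libraries and the HSPA9 call without either WT library or any sgHBG library (adjusted p up to 0.129 and 0.100).

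HSPA7 followed an order of groups of its own. It is a pseudogene of HSPA6 with which it can share reads, so its counts are uncertain, and it lies on chromosome 1 between Fcγ receptor genes. It stood at 8.56 and 9.84 CPM in WT (89 and 108 reads), 3.12, 2.52 and 3.12 CPM in sgGal4 (22 to 34 reads), 22.4, 30.6 and 29.6 CPM in sgHS2, 10.2, 11.4 and 13.8 CPM in sgHBG, and 26.7, 21.2 and 30.0 CPM in sgHS1-5. The libraries of sgGal4 were below WT, those of sgHBG just above it, and those of sgHS2 and sgHS1-5 above all others, without overlap except between the last pair. Against WT, HSPA7 fell in sgGal4 (log2 −1.66 ± 0.22, adjusted p 7.03e-05), rose in sgHS2 (1.58 ± 0.20, 7.34e-05) and sgHS1-5 (1.49 ± 0.20, 8.74e-05), and had 0.36 ± 0.20 in sgHBG (0.189). Against sgGal4 it rose by 3.24 ± 0.20 in sgHS2, 2.02 ± 0.20 in sgHBG and 3.15 ± 0.20 in sgHS1-5 (largest adjusted p 2.94e-05), or 9.42-, 4.05- and 8.90-fold. HSPA6, its coding relative, was highest in sgHBG instead (1.08 ± 0.20 against sgGal4, adjusted p 0.00202) and passed no test in sgHS2 (0.24 ± 0.20) or sgHS1-5 (0.05 ± 0.20) against sgGal4.

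The neighbours of HSPA7 in the RefSeq order were then read, a choice made after its values were seen. FCGR2C, next to it, stood at 4.91 and 4.37 CPM in WT, 0.426, 1.55 and 0.917 CPM in sgGal4, 14.8, 7.51 and 16.5 CPM in sgHS2, 6.004 to 6.89 CPM in sgHBG and 11.33 to 14.3 CPM in sgHS1-5. It was thus lowest in sgGal4 and high in sgHS2 and sgHS1-5, as HSPA7 was, with log2 differences from sgGal4 of 3.67, 2.65 and 3.65 (largest adjusted p 0.000298). FCGR2B, 4 places away, had 1.84 to 2.94 CPM in WT and sgGal4, 10.6 to 11.7 CPM in sgHS2, 3.502 to 4.55 CPM in sgHBG and 8.88 to 11.01 CPM in sgHS1-5. FCGR3B, 3 places away, had 6 and 6 reads in WT, 1, 2 and 2 in sgGal4, 7, 6 and 9 in sgHS2, 3, 2 and 4 in sgHBG and 6, 3 and 8 in sgHS1-5. Its log2 differences from sgGal4 were 1.91 (adjusted p 0.0116), 0.61 (0.565) and 2.13 (0.00572), and sgGal4 against WT missed the threshold (−1.60, adjusted p 0.051). FCGR3A, 2 places away on the other side, had at most 3 reads in any library and was not tested. FCGR2A, beyond these neighbours, did not have this order: it stood at 76.0 to 80.2 CPM in WT and 128 to 319 CPM elsewhere, highest in sgHBG. The FCGR2 genes are close copies of one another and can share reads.

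**Figure D4:**
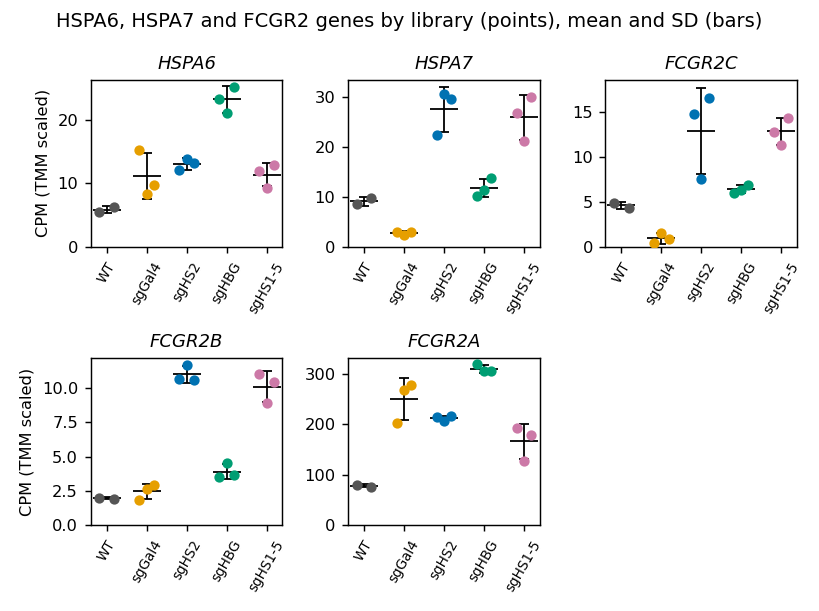
Levels of HSPA6, HSPA7 and the Fcγ receptor genes FCGR2C, FCGR2B and FCGR2A in CPM scaled by TMM (vertical axes, starting at 0) by group (horizontal axes); points are libraries, and bars give the mean and SD (n = 2 for WT and 3 for the others). HSPA7 and FCGR2C are lowest in sgGal4 and highest in sgHS2 and sgHS1-5, whereas HSPA6 and FCGR2A are highest in sgHBG.

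Lists of known partners of these chaperones were counted in the same way. Of 15 HSP90 co-chaperone genes, 7 rose and 0 fell in sgGal4 against WT (8 at an unadjusted p under 0.05, and 7 and 0 by DESeq2), 6 and 2 in sgHS2, 4 and 1 in sgHBG and 5 and 1 in sgHS1-5. These are 46.7%, 53.3%, 33.3% and 40.0% called, beside 42.4%, 33.1%, 33.6% and 42.9% of all genes. CHORDC1, which binds the ATPase domain of HSP90, rose by 1.81, 1.70, 2.00 and 1.64 on the log2 scale (SE 0.13), from 17.1 CPM in WT to 59.96 CPM in sgGal4. The immunophilin FKBP4 rose by 1.49, 1.07, 1.11 and 1.38 (SE 0.15). FKBP5, its paralog, fell in sgHS2 (−0.70 ± 0.15) and had −0.26, −0.40 and 0.18 in sgGal4, sgHBG and sgHS1-5. Without the 4 libraries named above 9 of the 15 rose in each of the 4 comparisons, and 3, 3, 4 and 3 fell, where 70.2%, 66.5%, 69.1% and 58.9% of all genes were called.

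Of 12 HSP70 co-chaperone genes, 5 rose and 2 fell in sgGal4, 2 and 1 in sgHS2, 2 and 1 in sgHBG and 4 and 2 in sgHS1-5 against WT, or 58.3%, 25.0%, 25.0% and 50.0% called beside the same shares of all genes. With those 4 libraries left out 6, 5, 7 and 6 rose and 3 fell in each. BAG3, a heat-inducible partner of HSP70 in autophagy, rose in sgGal4 (0.42 ± 0.15), sgHS2 (0.85 ± 0.15) and sgHBG (0.66 ± 0.15) and had 0.06 ± 0.15 in sgHS1-5, where it was lower than in sgGal4 (−0.36 ± 0.13). BAG2 rose in sgGal4, sgHBG and sgHS1-5 (0.32, 0.44 and 0.56) and had 0.27 in sgHS2, while the mitochondrial nucleotide exchange factor GRPEL2 fell in each (−0.44, −0.53, −0.38 and −0.93). Of the 8 subunits of TRiC, the cytosolic chaperonin for actin and tubulin, 5, 2, 1 and 2 rose and 0 fell in any of the 4 comparisons (5, 2, 2 and 4 at an unadjusted p under 0.05, with 0 lower by DESeq2). The share called was 62.5%, 25.0%, 12.5% and 25.0%, above the share of all genes in sgGal4 and below it in the other 3. Leaving out the same 4 libraries, where 58.9% to 70.2% of all genes were called, 7, 7, 6 and 6 rose and 1 fell in each. CCT3 rose in each (1.12, 0.43, 0.71 and 0.62, SE 0.14), CCT6A in sgGal4 (0.61 ± 0.13) and CCT7 in all but sgHBG (0.82, 0.68 and 0.70, with 0.56 ± 0.21 in sgHBG).

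Of 6 prefoldin subunits, which hand clients to TRiC, VBP1 fell in each comparison with WT (−1.60, −1.01, −1.30 and −1.60). PFDN2 (0.80 ± 0.28), PFDN5 (1.15 ± 0.35) and PFDN6 (1.08 ± 0.34) rose in sgGal4. The share called was 66.7% in sgGal4 and 16.7% in each other group, beside 42.4%, 33.1%, 33.6% and 42.9% of all genes. The prefoldin sum was 1409 CPM in sgGal4 1 at its highest and 586 CPM at its lowest in that group, and 582 to 615 CPM in WT. Of 5 tested genes among the heat shock factors and their regulators, 1 rose in sgGal4 and 2 in sgHS2. These are 20% and 40% called, and 0% in sgHBG and sgHS1-5, beside the same shares of all genes. HSF1 had 0.37 ± 0.12 in sgGal4 and 0.39 ± 0.12 in sgHS2, both called, and 0.22 ± 0.11 in sgHBG and −0.14 ± 0.11 in sgHS1-5, not called. HSF4 rose in sgHS2 (0.47 ± 0.17), and HSBP1, an inhibitor of HSF1, passed no test against WT. In sgHBG and sgHS1-5 none of the 5 was called by edgeR or by DESeq2 (1 and 0 at an unadjusted p under 0.05), whereas without the 4 libraries named above 2 rose and 1 fell in sgHBG.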

How the data were processed

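RNA was sequenced from 14 K562 libraries (TruSeq RNA v2, NextSeq500, per the labels' protocols). The deposited read counts per gene are unnormalised whole numbers for 24729 genes. The deposited RPKM values, which the authors scaled to transcript length and depth, cover 25268 genes. The submitters' processing notes name TopHat, Cufflinks, DESeq and hg19, without versions; the counting tool, annotation and strand are not given in the sources used here.

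The software was R 4.3.3 with edgeR 4.0.16, with limma 3.58.1, DESeq2 1.42.0 and Python 3.11.15 for alternatives and tables. Counts of genes that passed filterByExpr (count minimum 10, total minimum 15) were scaled by TMM and fitted with a mean per group over all 14 libraries (9 residual degrees of freedom, common dispersion 0.0323). Each comparison used edgeR's quasi-likelihood test, Benjamini-Hochberg adjusted over the 14406 genes tested, and called under 0.05. Log2 differences are fitted values, and their SE is derived from the F statistic. The fit was tested on simulated data. Levels are CPM scaled by TMM, and RPKM was used to compare genes. Promoter windows come from a RefSeq table (GRCh38.p14), matched by symbol.

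Genes named were the heat-inducible list, up to 5 called genes in each direction per comparison with the largest differences (mean of at least 1 CPM, groups not overlapping), and the highest by RPKM overall and per role; of each partner list, up to 3 with the lowest p in the 5-group test. Further genes were named after their values were seen. The chaperone genes, lists and alternatives were chosen with earlier results of these data known. Alternatives were RLE scaling, DESeq2, no filter, a fit of only the compared groups, a replicate block, a transcript length trend, libraries left out, and limma on log2(RPKM + 1) and log2(RPKM + 0.1).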

Additional observations from a re-analysis of the deposited data

Results flagged for a closer look

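In 3 differences between modified groups, 1 group lay above both WT libraries and the other below them, each against WT past the threshold, and the difference itself passed the edgeR test. HSPA7 was higher in sgHS2 than in sgGal4 by 3.24 on the log2 scale (adjusted p 3.65e-07), with 1.58 and −1.66 against WT. HSPA7 was also higher in sgHS1-5 than in sgGal4 by 3.15 (adjusted p 5.17e-07), with 1.49 and −1.66 against WT. DNAJC1 differed between sgHS1-5 and sgGal4 by −1.29 (adjusted p 7.66e-05), with −0.82 and 0.47 against WT. The rise of DNAJC1 in sgGal4 was lost when any of 10 libraries was left out (0.21 to 0.60, adjusted p up to 0.186).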

How the results depend on the processing

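Counts of called chaperone genes moved by more than 1.5 times under these settings. With only the compared groups in the fit they were 16 in sgGal4 and 48 in sgHBG against WT (all genes 26.3% and 72.1%). Against sgGal4 they were then 5, 4 and 10 in sgHS2, sgHBG and sgHS1-5 (all genes 17.7%, 16% and 17.1%). With the transcript length trend as an offset they were 20 in sgHS2 and 13 in sgHBG against sgGal4 (all genes 37.4% and 30.9%). Without the 4 libraries that stand apart, where 59 chaperone genes were tested, they were 50, 47 and 49 in sgGal4, sgHS2 and sgHBG against WT and 38 and 29 in sgHS2 and sgHBG against sgGal4. The number of chaperone genes below WT in all modified libraries was 7 with CPM not scaled by TMM (all genes 16.05%). It was 7 with RPKM (all genes 16.5%) and 12 without those 4 libraries (all genes 22.3%), settings chosen after the data were seen. Leaving out each library in turn gave 32 to 48 for the 5-group test, 19 to 33, 19 to 39, 16 to 39 and 24 to 39 in sgGal4, sgHS2, sgHBG and sgHS1-5 against WT, and 6 to 24, 5 to 14 and 22 to 29 in sgHS2, sgHBG and sgHS1-5 against sgGal4. The share of all genes called moved with these settings as well. In the main fit it was 67.1% in the 5-group test and 33.6% in sgHBG against WT. Without sgGal4 1 these shares were 80.8% and 49.1%, and without sgHBG 2 they were 60.8% and 26.9%. The cause of these moves was not tested.

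Replicate numbers did not pair the libraries (correlations of same-numbered deviations from −0.66 to 0.49). With the replicate number as a block the counts were 36 for the 5-group test, 27, 26, 19 and 29 against WT and 9, 6 and 26 against sgGal4, in the same order. The share of all genes called was then 62.2% in the 5-group test. Against WT it was 39.5%, 29.8%, 30% and 39.4%, and against sgGal4 27.1%, 21.2% and 37.3%. Of 102 called differences of named genes, refitted 2448 times over these settings, 2314 refits kept the call and the direction, 134 lost the call and 0 reversed. These differences were called in the main fit, and many were named for their size. Many refits also left out a library outside the comparison. The totals therefore do not extend to all calls. The fit of only the compared groups lost 22 of the 102 calls, and DESeq2 and RLE scaling lost 0. WT had 2 libraries, and depth limits the genes with few reads, such as HSPB8, DNAJC22 and DNAJC28.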
